A study of Mus musculus with 29 samples.

Results

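Heat shock proteins of the cytosol are molecular chaperones, and 10 of their transcripts were followed here across hearts with and without pressure overload: Hspa1a, Hspa1b, Hspa8, Hsph1, Hsp90aa1, Dnajb1, Hspb1, Hspb7, Cryab and Bag3. They were chosen by gene symbol, with earlier results of these data known, and are 10 of the 23420 genes listed per library, and all 10 passed the filter on low counts that left 13765 genes for testing. Hspa1a and Hspa1b encode the stress-inducible HSP70, and Hspa8 its constitutive relative HSC70. HSP70 proteins bind unfolded stretches of client proteins and release them in a cycle driven by ATP, which J-domain proteins such as the product of Dnajb1 start and nucleotide exchange factors such as those of Hsph1 and Bag3 reset. Hsp90aa1 encodes the inducible cytosolic HSP90, which acts on clients at a late stage of folding. Hspb1, Hspb7 and Cryab encode small heat shock proteins, which hold partly unfolded proteins without ATP and in heart muscle are found at the Z-disc and along the desmin and actin filaments. BAG3 joins HSP70 to small heat shock proteins and directs damaged filamin to autophagy. Transcription of many heat shock genes is under the factor HSF1, which binds repeats of the 5-base unit nGAAn in alternating orientation.

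Polyadenylated RNA came from 29 libraries of C57BL/6J mouse hearts, labelled 12 weeks old, in 8 groups. One arm was studied 4 weeks after transverse aortic constriction (TAC), in which a ligature around the aortic arch raises the pressure against which the left ventricle ejects. It held 4 libraries with combined ablation of protein kinase C isoforms δ and ε, 4 with germline PKCε knockout (PKCε-null), 3 with postnatal cardiac PKCδ ablation and 4 of wild type. Unstressed hearts gave 4 combined-ablated, 3 PKCε-null, 3 PKCδ-ablated and 4 wild-type libraries. The combined knockout is labelled only as such, and the promoter that drove the cardiac ablation is not given in the sources used here. The unstressed hearts are not labelled as sham-operated, so a TAC effect includes that of the operation. Levels are CPM, counts divided by library size after scaling with TMM factors, given ± SD, and differences are log2 fold changes ± SE. For edgeR the SE is an approximation, the absolute log2 fold change divided by the square root of the F of its test. A gene was called where its p from edgeR's quasi-likelihood test, adjusted by Benjamini-Hochberg over the 13765 genes, was below 0.05.

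The libraries held 10523709 to 17314739 counts in genes. Prkce, the gene of PKCε, lay at 6.59 to 11 CPM in the PKCε-null and combined-ablated libraries, against 24.0 to 52.9 CPM in PKCδ-ablated and wild-type libraries, with 1 exception: the library labelled combined ablation, TAC, replicate 2 had 31.5 CPM. Prkcd, the gene of PKCδ, stood at 16.3 to 20.8 CPM in the PKCδ-ablated libraries and at 13.4 to 28.0 CPM in wild type, so gene-level counts do not check that label. Wild-type TAC replicate 2 had the lowest Prkce of its group (24.0 CPM) and the highest summed level of 9 immediate early genes of all libraries (1014 CPM). It had 10.2 CPM of the skeletal muscle marker Myh2, against 0.0671 to 0.279 CPM in the other wild-type TAC libraries. Combined-ablated TAC replicate 2 had 0.152 CPM of Myh2, against 6.27 to 7.66 CPM in the rest of its group and 0 to 0.167 CPM in unstressed combined-ablated libraries. Whether these 2 libraries are mislabelled or mixed was not tested. Both keep their labels in the main fit, and results are also given below without them where that changes a call. Reads aligned to more than 1 place made up 11% to 14.2% of reads in TAC libraries and 8.01% to 9.57% in unstressed ones. The gene with most counts, which was Rn45s, a ribosomal RNA precursor, in all unstressed and most TAC libraries and otherwise Myh6, took 4.86% to 8.59% of the counts in TAC libraries and 9.9% to 14.1% in unstressed ones. Both measures separate the arms completely, and their part in the TAC effects below was not tested. All 8 cardiomyocyte markers were detected in every group, with summed levels of 85757 to 104040 CPM in TAC groups and 100020 to 122150 CPM in unstressed groups. The sum of 7 fibroblast markers was 1019 to 2395 CPM in TAC groups and 572 to 807 CPM in unstressed groups, and that of 4 atrial markers (Sln, Myl7, Myl4 and Nppa) 478 to 7157 CPM and 56.6 to 163 CPM. Of these 4, only 1 was called higher after TAC in combined-ablated and 1 in PKCε-null hearts, 2 in PKCδ-ablated and 3 in wild-type hearts. The atrial sum therefore does not stand for all its markers and is no measure of atrial tissue. In these bulk samples a change in the number of cells of a type and a change in RNA per cell cannot be told apart, and the part of cell makeup in the results below was not tested.

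In unstressed wild-type hearts the 10 transcripts differed widely in level. Per kilobase of exon, the small heat shock proteins led, with mean levels of 1600.3 CPM per kb for Cryab and 1016 CPM per kb for Hspb7. Hspa8 (311 CPM per kb), Hspb1 (265 CPM per kb) and Bag3 (164 CPM per kb) followed. Hsp90aa1 had 26.4, Hsph1 6.22 and Dnajb1 4.10 CPM per kb. Hspa1b and Hspa1a were the lowest, at 0.126 and 0.242 CPM per kb. Their unstressed wild-type levels rested on 2 to 6 reads per library for Hspa1b and 5 to 12 for Hspa1a.

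The genes lie in GRCm38.p6 at chr17:34969359-34972156 (Hspa1a), chr17:34956429-34959238 (Hspa1b), chr9:40801276-40805202 (Hspa8), chr5:149616843-149636498 (Hsph1), chr12:110691036-110696395 (Hsp90aa1), chr8:83608175-83612653 (Dnajb1), chr5:135887919-135889563 (Hspb1), chr4:141420779-141425310 (Hspb7), chr9:50745951-50756636 (Cryab) and chr7:128523583-128546981 (Bag3), and the order of their levels holds within limits set by the counting. Of the 50-base windows of the longest Hspa1a transcript, 66.3% also occurred in other genes, mostly Hspa1b (58.8%), and 62.3% of Hspa1b windows occurred in Hspa1a. Shared windows made up 74.8% for Hspa8 (mostly the locus Gm15459), 58.5% for Hsp90aa1 (mostly Gm12346) and 51.6% for Hspb1 (Hsp25-ps1), against 0% for Hsph1 and Bag3. Reads from such windows align to more than 1 place and are left out of HTSeq's gene counts by default, in which case these genes are undercounted, and Hspa1a and Hspa1b cannot be fully told apart. On the opposite strand, Hspb2 covers 17% of the exon bases of Cryab and Gm20481 19% of those of Hspa1a, and without strand their reads cannot be separated.

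**Figure D1:**
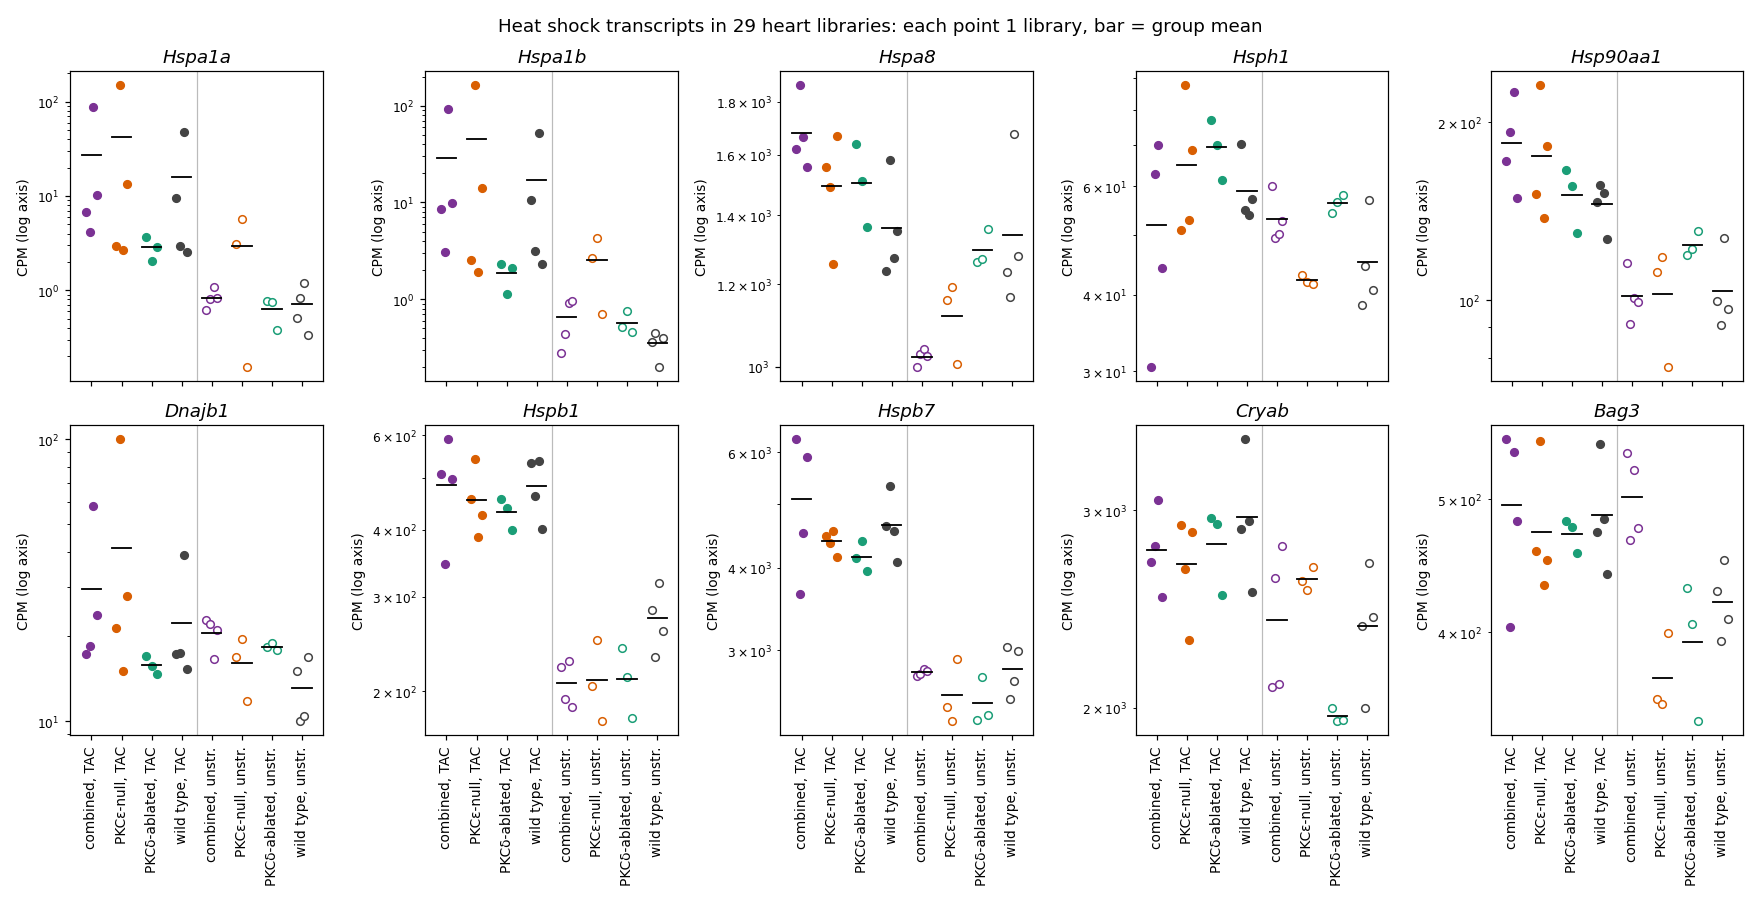
Level of the 10 transcripts in each of 29 heart libraries, in CPM on log axes, with TAC groups (filled points) left of the grey line and unstressed groups (open points) right of it. Bars are group means of 3 or 4 libraries; Hspb1 and Hspb7 separate the arms completely, while Hspa1a, Hspa1b and Dnajb1 each have 1 TAC library far above the others in 3 of the 4 TAC groups, up to 164 CPM for Hspa1b.

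Called TAC effects on the members were all increases. In combined-ablated hearts 6 of 10 members were called higher and 0 lower by edgeR, where 43.8% of all tested genes were called, 22% higher and 21.8% lower. PKCε-null hearts had 7 higher and 0 lower (28.9% of all genes called, 14.5% higher and 14.3% lower), and PKCδ-ablated hearts 3 higher and 0 lower (26.9% of all genes, 12.9% higher and 14% lower). Wild-type hearts had 6 higher and 0 lower (35.7% of all genes, 17.8% higher and 17.9% lower). At an unadjusted p under 0.05 there were 7, 9, 4 and 7 members in these 4 genotypes. Over all 13765 tested genes the numbers were 6992, 5420, 5213 and 6166. The median log2 fold change of the 10 members was 0.79 in combined-ablated, 0.78 in PKCε-null, 0.41 in PKCδ-ablated and 0.61 in wild-type hearts, where the median over all tested genes lay between -0.02 and 0.00. DESeq2 called 6, 9, 4 and 6 members in combined-ablated, PKCε-null, PKCδ-ablated and wild-type hearts, and its shares over all genes are not given here.

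The small heat shock proteins Hspb1 and Hspb7 showed the most regular difference. Hspb1, whose product HSP25 caps and stabilises actin filaments, had 508, 345, 590.5 and 498 CPM in combined-ablated TAC hearts, against 222, 193, 228 and 187 CPM in unstressed combined-ablated hearts. PKCε-null hearts had 457, 543, 389 and 427 CPM after TAC, against 205, 249 and 176 CPM unstressed. In PKCδ-ablated hearts the values were 456, 439 and 400.4 CPM after TAC, against 241, 212 and 178 CPM unstressed. Wild-type hearts had 533, 462, 537 and 402 CPM after TAC, against 284, 232, 319 and 259 CPM unstressed. Every TAC library lay above every unstressed library of any genotype. How many of all tested genes separate the arms in this way is not given here. Its log2 fold change was 1.23 ± 0.14 in combined-ablated hearts (adjusted p = 2.6e-07), 1.11 ± 0.16 in PKCε-null hearts (adjusted p = 1.6e-05), 1.04 ± 0.17 in PKCδ-ablated hearts (adjusted p = 6.7e-05) and 0.82 ± 0.14 in wild-type hearts (adjusted p = 9.1e-05). The TAC effects of the ablated hearts did not differ from that of wild type at the threshold (interaction 0.40 ± 0.20, adjusted p = 0.15, in combined-ablated hearts), though the interaction passed without the combined-ablated TAC replicate 2 that carried Prkce (0.54 ± 0.18, adjusted p = 0.034) and with the sex label as a term (0.55 ± 0.19, adjusted p = 0.047). Without both that library and wild-type TAC replicate 2 it did not pass (0.51 ± 0.19, adjusted p = 0.065).

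Hspb7, which encodes a heart and muscle small heat shock protein that binds filamin C, was the most abundant member after TAC in CPM. The 15 TAC libraries ranged over 3653 to 6283 CPM with a median of 4481 CPM, against 2345 to 3032 CPM with a median of 2734 CPM in the 14 unstressed libraries, again without overlap. Fold changes were alike in size: 0.87 ± 0.11 on the log2 scale in combined-ablated, 0.77 ± 0.12 in PKCε-null, 0.74 ± 0.13 in PKCδ-ablated and 0.73 ± 0.11 in wild-type hearts, with adjusted p between 4e-07 and 0.00012. Combined-ablated TAC hearts averaged 5089 ± 1222 CPM, with the Prkce-carrying replicate 2 the lowest at 3653 CPM, and wild-type TAC hearts 4651 ± 515 CPM (difference 0.13 ± 0.11, adjusted p = 0.51). Without that library and wild-type TAC replicate 2 the difference was 0.32 ± 0.10 (adjusted p = 0.047).

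Cryab, the gene of αB-crystallin, a chaperone of desmin, changed less. It was called higher after TAC in PKCδ-ablated hearts (0.51 ± 0.12, adjusted p = 0.0016) and wild-type hearts (0.32 ± 0.10, adjusted p = 0.013). PKCδ-ablated hearts had 2952, 2917 and 2520.5 CPM after TAC, against 1997, 1947 and 1949.7 CPM unstressed, with no overlap. Wild-type hearts overlapped, with 2884, 3472, 2936 and 2535 CPM after TAC against 2366, 1998, 2693 and 2410.4 CPM unstressed, and the call was lost without wild-type TAC replicate 2 (0.23 ± 0.10, adjusted p = 0.078), without it and the Prkce-carrying library (0.24 ± 0.10, adjusted p = 0.066), and without wild-type unstressed replicate 2 (0.25 ± 0.10, adjusted p = 0.065). In combined-ablated hearts the change was 0.21 ± 0.10 (adjusted p = 0.095), but it was called with the sex label as a term (0.36 ± 0.12, adjusted p = 0.017) and without unstressed replicate 4 (0.30 ± 0.10, adjusted p = 0.021). The change was, in PKCε-null hearts, 0.04 ± 0.11 (adjusted p = 0.80, 95% interval -0.18 to 0.27).

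**Figure D2:**
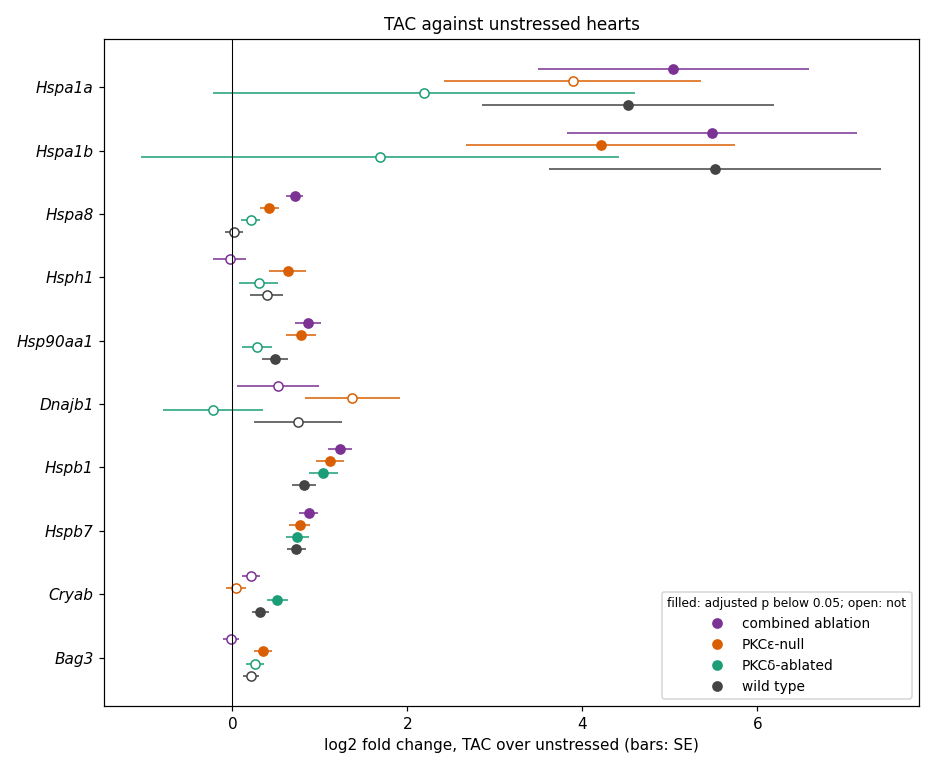
Log2 fold change of each transcript, TAC over unstressed, with SE bars, in combined-ablated, PKCε-null, PKCδ-ablated and wild-type hearts; filled points have an adjusted p below 0.05. Hspb1 and Hspb7 are filled in all 4 genotypes, and Hspa8 in combined-ablated (0.71) and PKCε-null hearts (0.42). The wide bars of Hspa1a and Hspa1b (SE 1.47 to 2.73) rest on a spread shared by all groups and not on that of the groups compared. The widest, 2.73 for Hspa1b in PKCδ-ablated hearts, was 0.37 in a fit to those groups alone.

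The inducible HSP70 genes lie next to each other on chromosome 17, and the RefSeq sequences of the 250 bases before their starts differ at 3 bases. These sequences, with that of Hspb1, are shown because their transcripts had the 3 largest fold changes after TAC in combined-ablated, PKCδ-ablated and wild-type hearts and because the windows can be read for the HSF1 motif (GRCm38.p6; minus strand for Hspa1a, chr17:34972157-34972406, and Hspa1b, chr17:34959239-34959488; plus strand for Hspb1, chr5:135887669-135887918). Capitals mark 2 facing units, GAANNTTC or TTCNNGAA, searched on both strands; each form reads the same on the opposite strand.
Hspa1a: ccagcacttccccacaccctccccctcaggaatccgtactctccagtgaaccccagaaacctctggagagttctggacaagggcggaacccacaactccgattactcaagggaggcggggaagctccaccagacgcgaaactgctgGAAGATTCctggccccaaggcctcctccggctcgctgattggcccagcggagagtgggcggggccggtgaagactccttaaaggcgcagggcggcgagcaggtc
Hspa1b: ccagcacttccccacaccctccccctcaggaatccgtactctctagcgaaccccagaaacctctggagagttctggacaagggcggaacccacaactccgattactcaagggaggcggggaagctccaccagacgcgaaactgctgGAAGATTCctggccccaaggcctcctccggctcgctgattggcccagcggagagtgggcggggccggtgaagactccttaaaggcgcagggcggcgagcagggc
Hspb1: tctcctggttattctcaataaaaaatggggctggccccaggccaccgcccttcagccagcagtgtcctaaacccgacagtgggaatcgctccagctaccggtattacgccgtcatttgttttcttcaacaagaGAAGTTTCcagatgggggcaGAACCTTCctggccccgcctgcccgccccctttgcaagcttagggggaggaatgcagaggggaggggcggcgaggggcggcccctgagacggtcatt
Hspa1a and Hspa1b hold the motif once, at 97 to 104 bases before the start, and Hspb1 2 times within 90 to 117 bases before the start. Hsph1 holds it once, and these letters are not in the windows of Dnajb1, Hspb7 and Bag3. The motif is in 12.84% of 32851 promoters of the table, and its 3-unit form, which no member holds in these windows, in 0.47%. Of the 10 members, 7 have an entry in the table; Hspa8, Hsp90aa1 and Cryab do not. A match describes the letters and not a binding site.

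Hspa1a and Hspa1b had the largest fold changes and the widest spread. Hspa1b had 8.61, 3.04, 93.4 and 9.92 CPM in combined-ablated TAC hearts, against 0.277, 0.44, 0.918 and 0.961 CPM in unstressed ones. PKCε-null hearts had 2.54, 164, 1.93 and 14.0 CPM after TAC, against 2.68, 4.25 and 0.70 CPM unstressed. PKCδ-ablated hearts had 2.33, 1.13 and 2.09 CPM after TAC, against 0.51, 0.753 and 0.454 CPM unstressed. Wild-type hearts had 10.6, 3.12, 52.0 and 2.30 CPM after TAC, against 0.361, 0.451, 0.201 and 0.401 CPM unstressed. The groups overlapped in PKCε-null hearts and were apart in the other 3 genotypes, and in each of 3 TAC groups a single library stood far above the rest. The log2 fold change of Hspa1b was 5.48 ± 1.66 in combined-ablated (adjusted p = 0.01), 4.21 ± 1.54 in PKCε-null (adjusted p = 0.045), 1.69 ± 2.73 in PKCδ-ablated (adjusted p = 0.69) and 5.52 ± 1.90 in wild-type hearts (adjusted p = 0.028).

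Hspa1a followed the same libraries, with 6.70, 4.18, 87.1 and 10.2 CPM in combined-ablated TAC hearts against 0.623, 0.806, 1.08 and 0.824 CPM unstressed, and 2.92, 150.1, 2.69 and 13.4 CPM in PKCε-null TAC hearts against 3.06, 5.63 and 0.156 CPM unstressed. In PKCδ-ablated hearts it had 3.63, 2.07 and 2.91 CPM after TAC against 0.766, 0.753 and 0.378 CPM unstressed, and in wild type 9.46, 2.93, 47.8 and 2.58 CPM against 0.505, 0.826, 1.21 and 0.334 CPM. It was called in combined-ablated (5.04 ± 1.55, adjusted p = 0.012) and wild-type hearts (4.52 ± 1.67, adjusted p = 0.039), and had 3.89 ± 1.47 (adjusted p = 0.052) in PKCε-null and 2.19 ± 2.41 (adjusted p = 0.54) in PKCδ-ablated hearts. The PKCε-null value was called without wild-type TAC replicate 2 and the Prkce-carrying library (adjusted p = 0.044), with the sex label as a term (adjusted p = 0.027) and by DESeq2 (adjusted p = 0.0063). The wild-type call was lost with no filter on low counts (adjusted p = 0.054) and with only the groups compared (adjusted p = 0.053). It was also lost without any one of the 4 unstressed wild-type libraries (adjusted p = 0.068 to 0.094), as was that of Hspa1b (adjusted p = 0.057 to 0.065). The standard errors come from a spread shared by all groups, which the high libraries widen. With a fit to the PKCδ-ablated groups alone, Hspa1a rose by 2.20 ± 0.33 (adjusted p = 5.3e-05) and Hspa1b by 1.71 ± 0.37 (adjusted p = 0.0014). In that fit 9 of 10 members were called, and the share of all genes called in it is not given here.

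The 3 high libraries decide the size of these values. Leaving out wild-type TAC replicate 3, PKCε-null TAC replicate 2 and combined-ablated TAC replicate 3 together gave Hspa1b 3.48 ± 0.78 in combined-ablated (adjusted p = 0.0014), 1.26 ± 0.73 in PKCε-null (adjusted p = 0.22), 1.69 ± 1.04 in PKCδ-ablated (adjusted p = 0.25) and 3.84 ± 0.89 in wild-type hearts (adjusted p = 0.003). Hspa1a was then 3.08 ± 0.74 in combined-ablated hearts (adjusted p = 0.0026) and 2.86 ± 0.80 in wild-type hearts (adjusted p = 0.011). These libraries were picked for their levels of Hspa1a and Hspa1b, which narrows the shared spread of the same genes. The adjusted p of that fit are therefore no independent test of the rise. Leaving out only wild-type TAC replicate 3, while the other high libraries stay in the shared spread, gave 2.86 (adjusted p = 0.24) for Hspa1a and 3.84 (adjusted p = 0.17) for Hspa1b in wild type. Without combined-ablated TAC replicate 3 alone the values there were 3.09 (adjusted p = 0.12) and 3.49 (adjusted p = 0.10). In PKCε-null hearts the Hspa1b call fell away in 19 of 29 fits that each left out a library, with no filter on low counts (adjusted p = 0.061) and with only the groups compared (adjusted p = 0.23). The summed immediate early genes, which respond to handling among other stimuli, were 345 CPM in wild-type TAC replicate 3, 372 CPM in PKCε-null TAC replicate 2 and 309 CPM in combined-ablated TAC replicate 3. Over all libraries of these TAC groups they ranged over 314 to 1014, 246.5 to 427 and 263 to 499.6 CPM. The part of handling in the high values was not tested.

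Dnajb1, the J-domain partner of HSP70, was high in the same 3 libraries. It had 57.9 CPM in combined-ablated TAC replicate 3, 100.2 CPM in PKCε-null TAC replicate 2 and 39.0 CPM in wild-type TAC replicate 3, against 17.3 to 23.9, 15.1 to 27.8 and 15.3 to 17.5 CPM in the other TAC libraries of those groups. The unstressed libraries held 10.1 to 22.9 CPM. No TAC effect was called: 0.52 ± 0.47 in combined-ablated (adjusted p = 0.40), 1.37 ± 0.54 in PKCε-null (adjusted p = 0.06), -0.22 ± 0.57 in PKCδ-ablated (adjusted p = 0.82) and 0.75 ± 0.50 in wild-type hearts (adjusted p = 0.25), and without the 3 high libraries the values were -0.05, 0.41, -0.22 and 0.34. The PKCε-null value was called with the sex label as a term (adjusted p = 0.043) and by DESeq2 (adjusted p = 0.027).

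Within TAC groups the library with the highest Hspa1b also had the highest Hspa1a, Dnajb1 and Hspb1 in 4 of 4 groups and the highest Hsph1 and Hsp90aa1 in 3 of 4. Cryab and Bag3 shared it in 2 groups, Hspa8 in 1 and Hspb7 in 0. How far that library stood out differed widely. In PKCε-null TAC replicate 2 the level was 64.6 times the median of the other PKCε-null TAC libraries for Hspa1b, 4.68 times for Dnajb1, 1.66 times for Hsph1, 1.53 times for Hsp90aa1 and 1.27 times for Hspb1. For Hspb1 this ratio was 1.09 to 1.27 over the 4 TAC groups. With unstressed groups included, the highest library was shared with Hspa1b in 5 of 8 groups for Hspa1a, 6 for Dnajb1, 5 for Hspb1, 4 for Hsp90aa1 and 3 for Hsph1. How many of all tested genes are highest in the same library is not given here.

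**Figure D3:**
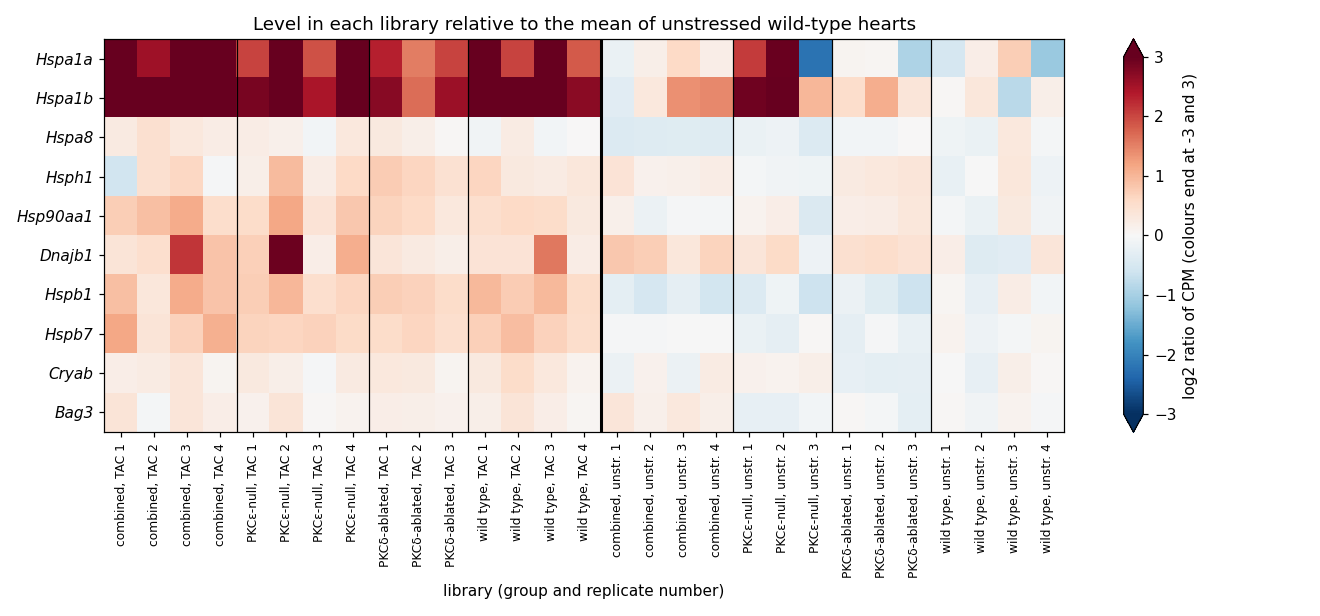
Level of each transcript in each library as a log2 ratio to the mean of unstressed wild-type hearts, TAC libraries left of the thick line. Hspa1a, Hspa1b, Hsp90aa1, Dnajb1, Hspb1 and Hspb7 are above that mean, and so in shades of red, in all 15 TAC libraries. Dnajb1 is reddest in combined-ablated TAC 3, PKCε-null TAC 2 and wild-type TAC 3, where Hspa1a and Hspa1b are also highest.

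Hsp90aa1 lay above all 14 unstressed libraries in 13 of 15 TAC libraries. It had 172, 192, 225 and 149 CPM in combined-ablated TAC hearts against 116, 91.3, 101 and 99.3 CPM unstressed, and 152, 231, 138 and 182 CPM in PKCε-null TAC hearts against 112, 119 and 77.3 CPM unstressed. PKCδ-ablated hearts had 166, 156 and 130.1 CPM after TAC against 119, 122 and 131 CPM unstressed, and wild-type hearts 146, 157, 152 and 127 CPM against 99.7, 91.0, 127 and 96.8 CPM. It was called in combined-ablated (0.86 ± 0.15, adjusted p = 7.1e-05), PKCε-null (0.78 ± 0.17, adjusted p = 0.0011) and wild-type hearts (0.49 ± 0.15, adjusted p = 0.014), and not in PKCδ-ablated hearts (0.28 ± 0.17, adjusted p = 0.25, 95% interval -0.08 to 0.64). The difference of the PKCδ-ablated effect from wild type was -0.21 ± 0.23 (adjusted p = 0.76).

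Hsph1, which encodes the HSP110 nucleotide exchange factor, was called in PKCε-null hearts, with 50.9, 87.8, 52.9 and 68.7 CPM after TAC against 43.1, 42.0 and 41.6 CPM unstressed (0.63 ± 0.21, adjusted p = 0.029). Without the 3 high libraries this was 0.44 ± 0.18 (adjusted p = 0.079), and the call was also lost without any one of the 3 unstressed PKCε-null libraries (adjusted p = 0.075 to 0.078), without TAC replicate 2 alone (adjusted p = 0.12) or without TAC replicate 4 (adjusted p = 0.055). Combined-ablated hearts were the most variable, with 30.6, 62.8, 70.1 and 44.3 CPM after TAC against 60.2, 49.4, 50.2 and 52.7 CPM unstressed (-0.03 ± 0.19, adjusted p = 0.91). The change was 0.30 in PKCδ-ablated and 0.39 in wild-type hearts, neither called in the shared fit. PKCδ-ablated hearts had 76.9, 70.1 and 61.6 CPM after TAC against 54.4, 56.6 and 58.1 CPM unstressed, without overlap. With only the groups compared, edgeR called both (0.32 ± 0.08, adjusted p = 0.004, in PKCδ-ablated and 0.39 ± 0.13, adjusted p = 0.031, in wild-type hearts).

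Hspa8, Bag3 and Hspb1 were the members called between genotypes. In unstressed hearts Hspa8 had 1000, 1028, 1039 and 1023 CPM in combined-ablated hearts, against 1234, 1166, 1675 and 1278 CPM in wild type. These groups did not overlap, and the difference was -0.39 ± 0.10 (adjusted p = 0.0034). PKCε-null hearts overlapped both, with 1160.4, 1195 and 1005 CPM (-0.26 ± 0.11, adjusted p = 0.21), and PKCδ-ablated hearts had 1261, 1269 and 1359 CPM (-0.05 ± 0.11, adjusted p = 0.86). After TAC the combined-ablated hearts had 1622, 1869, 1666 and 1556 CPM, against 1237, 1582, 1272 and 1351 CPM in wild-type TAC hearts.

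Hspa8 thus was called higher after TAC in combined-ablated hearts (0.71 ± 0.10, adjusted p = 9e-07) and in PKCε-null hearts (0.42 ± 0.11, adjusted p = 0.0039), and had 0.21 ± 0.11 (adjusted p = 0.16) in PKCδ-ablated and 0.02 ± 0.10 (adjusted p = 0.88) in wild-type hearts. The TAC effect of combined-ablated hearts exceeded that of wild type by 0.69 ± 0.14 (adjusted p = 0.00061), the only interaction called among the members, where 25.1% of all genes were called. It held without the Prkce-carrying library and wild-type TAC replicate 2 (0.71 ± 0.14, adjusted p = 0.00074). The same difference was 0.39 ± 0.14 in PKCε-null (adjusted p = 0.45) and 0.19 ± 0.15 in PKCδ-ablated hearts (adjusted p = 0.64). Ordered by mean level, neighbouring groups overlapped throughout except between PKCδ-ablated unstressed (1296 CPM) and PKCε-null unstressed hearts (1120.1 CPM). The combined-ablated comparisons share the wild-type libraries.

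In unstressed combined-ablated hearts 3 of 10 members were called against wild type, where 29.2% of all genes were, 15.3% higher and 13.9% lower: Hspa8 and Hspb1 were lower and Bag3 higher. Hspb1 averaged 207 ± 20.4 CPM in combined-ablated hearts and 273 ± 36.8 CPM in wild type (-0.40 ± 0.14, adjusted p = 0.038), and its lower level was close in PKCε-null hearts (-0.38 ± 0.16, adjusted p = 0.21) and PKCδ-ablated hearts (-0.38 ± 0.16, adjusted p = 0.16), which did not pass. Bag3 had 540, 467, 525 and 476 CPM in combined-ablated hearts, against 429, 394, 451 and 409 CPM in wild type, without overlap (0.26 ± 0.09, adjusted p = 0.032). The Hspb1 call was lost in 4 and the Bag3 call in 5 of the 29 fits that left out a library, with adjusted p up to 0.12 and 0.11, and the Hspb1 call also with no filter on low counts (adjusted p = 0.059).

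In combined-ablated hearts Bag3 had 553, 403, 541 and 482 CPM after TAC (-0.02 ± 0.09 against the unstressed hearts, adjusted p = 0.87), and the lowest of these is the Prkce-carrying replicate 2. The other 3 libraries overlapped the unstressed range too, of which 467 and 476 CPM lay below them. It was called in PKCε-null hearts, with 459, 551, 433 and 452 CPM after TAC against 357, 355 and 399 CPM unstressed (0.35 ± 0.10, adjusted p = 0.0075). In PKCδ-ablated hearts the change was 0.26 ± 0.10 (adjusted p = 0.062) and in wild type 0.21 ± 0.09 (adjusted p = 0.068), both close to the threshold. The PKCδ-ablated value, 0.26 to 0.35 over these alternatives, was called in 7 of 8 settings other than leaving out a single library (adjusted p = 0.0072 to 0.049), all but the replicate block, and was 0.27 ± 0.09 (adjusted p = 0.019) without wild-type TAC replicate 2 and the Prkce-carrying library. The wild-type value was called with the sex label as a term (adjusted p = 0.035) and with only the groups compared (adjusted p = 0.044).

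**Figure D4:**
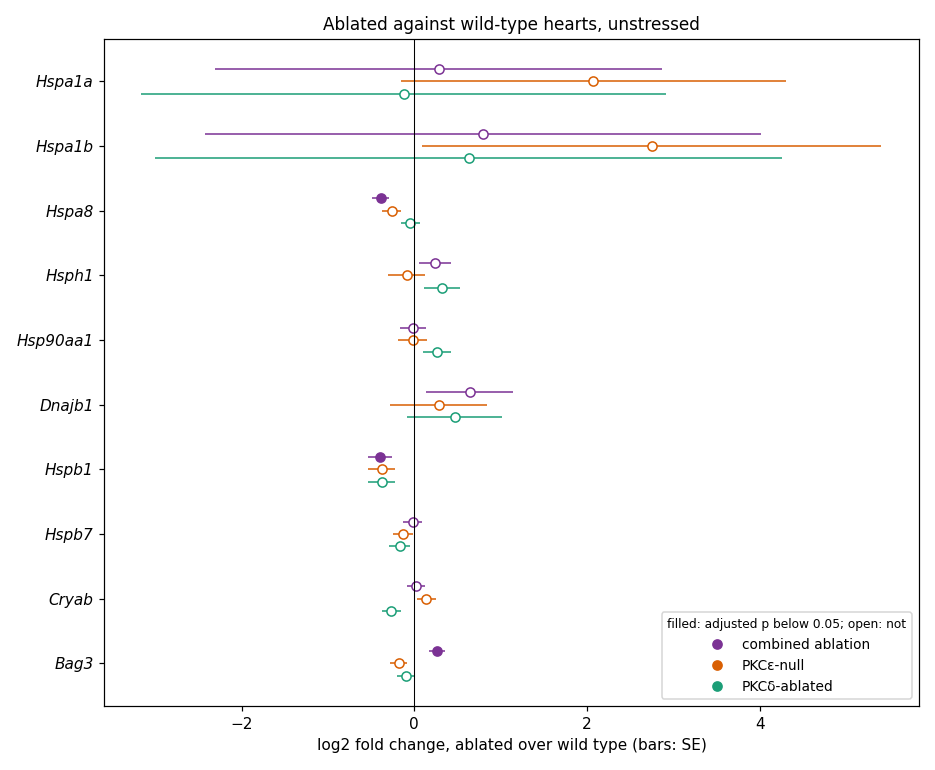
Log2 fold change of each transcript, ablated over wild type in unstressed hearts, with SE bars; filled points have an adjusted p below 0.05. Only combined-ablated hearts have filled points, for Hspa8 (-0.39), Hspb1 (-0.40) and Bag3 (0.26), and the bars of Hspa1a and Hspa1b are the longest (SE 2.23 to 3.63).

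The single ablations gave no call against wild type in unstressed hearts with edgeR or DESeq2: 0 of 10 members in PKCε-null hearts, where 3% of all genes were called, and 0 of 10 in PKCδ-ablated hearts, where 5.37% were. At an unadjusted p under 0.05 there were 2 members in each (Hspa8 and Hspb1 in PKCε-null, Hspb1 and Cryab in PKCδ-ablated hearts). Over all 13765 tested genes there were 2250 in PKCε-null and 2773 in PKCδ-ablated hearts. Among TAC hearts edgeR called 0 of 10 members in combined-ablated hearts against wild type, where 6.76% of all genes were called. There 2 members and 3302 of all genes had an unadjusted p under 0.05. DESeq2 called 1 member, Hspa8 (0.30 ± 0.10, adjusted p = 0.034). In PKCε-null TAC hearts edgeR and DESeq2 called 0 of 10 (0.0436% of all genes by edgeR), with 0 members and 1553 genes at an unadjusted p under 0.05. PKCδ-ablated TAC hearts likewise had 0 of 10 called (0% of all genes by edgeR), with 0 members and 789 genes at an unadjusted p under 0.05. DESeq2 called 1 gene there. Hspa1a averaged 2.87 ± 0.78 CPM in PKCδ-ablated TAC hearts and 15.7 ± 21.6 CPM in wild-type TAC hearts (-2.45 ± 1.42, adjusted p = 0.88, 95% interval -5.41 to 0.51). The interactions of the single ablations with TAC likewise held 0 called members by both tools (0.0363% of all genes for PKCε-null and 1.27% for PKCδ-ablated hearts by edgeR). An unadjusted p under 0.05 was found for 1 member and 1083 genes in PKCε-null hearts. In PKCδ-ablated hearts it was found for 0 members and 1869 genes.

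Of 100 other chaperone genes in 9 lists, 95 were tested. After TAC 40 were called higher and 11 lower in combined-ablated hearts, 26 and 6 in PKCε-null, 29 and 4 in PKCδ-ablated and 28 and 6 in wild-type hearts. Over all tested genes the shares called higher and lower were 22% and 21.8% in combined-ablated, 14.5% and 14.3% in PKCε-null, 12.9% and 14% in PKCδ-ablated and 17.8% and 17.9% in wild-type hearts, so the counts are not comparable between genotypes on their own. Among 13 tested subunits of the cytosolic chaperonin TRiC and of prefoldin, which hand over and fold actin and tubulin, 11 were called higher in combined-ablated hearts, 3 in PKCε-null, 3 in PKCδ-ablated and 6 in wild-type hearts, and 0 lower (median log2 fold change 0.34, 0.17, 0.08 and 0.18). Pfdn1, a prefoldin subunit, rose by 0.67 ± 0.08 in combined-ablated (adjusted p = 1.2e-07), 0.54 ± 0.09 in PKCε-null (adjusted p = 5.7e-05), 0.47 ± 0.09 in PKCδ-ablated (adjusted p = 0.00047) and 0.50 ± 0.08 in wild-type hearts (adjusted p = 2.8e-05).

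The partners of BAG3 in chaperone-assisted autophagy included 7 of 9 called higher in combined-ablated, 5 in PKCε-null, 5 in PKCδ-ablated and 4 in wild-type hearts, with 0, 1, 1 and 1 called lower in these genotypes. Flnc, the filamin that BAG3 delivers for degradation, averaged 2131 ± 396 CPM in combined-ablated TAC hearts against 1340.3 ± 55.4 CPM unstressed (0.67 ± 0.09, adjusted p = 9.7e-07), and 1949 ± 130.1 CPM in wild-type TAC hearts against 1001 ± 101 CPM unstressed (0.96 ± 0.09, adjusted p = 1.3e-08). Des, the gene of desmin, rose by 0.97 ± 0.11 in combined-ablated hearts (adjusted p = 2.3e-08) and by 0.81 ± 0.10 in wild type (adjusted p = 1.2e-06). Of the 4 tested other small heat shock proteins, Hspb8, whose product forms the complex with BAG3, was called higher in all 4 genotypes (0.32 in combined-ablated, 0.51 in PKCε-null, 0.29 in PKCδ-ablated and 0.30 in wild-type hearts). It was chosen for its tie to BAG3 after its values were seen.

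Of the 95 other chaperone genes, 15 had a called positive and 8 a called negative interaction with the combined ablation, a share near the 25.1% called over all genes. Dnajb4, a muscle J-domain protein, rose by 1.11 ± 0.17 after TAC in combined-ablated hearts (adjusted p = 7.8e-06), against -0.40 ± 0.17 in wild type (adjusted p = 0.068), an interaction of 1.51 ± 0.24 (adjusted p = 9.4e-05). Dnaja4 had an interaction of 0.62 ± 0.13 (adjusted p = 0.00089) and Cacybp, an HSP90 co-chaperone, of 0.98 ± 0.20 (adjusted p = 0.00069). Hspb3 went the other way, with an interaction of -0.89 ± 0.19 in combined-ablated hearts (adjusted p = 0.0012) and -0.98 ± 0.21 in PKCδ-ablated hearts (adjusted p = 0.012), and stood higher in those unstressed hearts than in wild type (0.75 ± 0.14, adjusted p = 0.00017, and 0.64 ± 0.15, adjusted p = 0.012). The list of heat shock factors held 4 tested genes. After TAC in combined-ablated hearts Hsbp1, whose product binds heat shock factor 1, was called higher (0.24 ± 0.06, adjusted p = 0.001), and the factor genes Hsf4 (-0.37 ± 0.14, adjusted p = 0.038) and Hsf1 (-0.28 ± 0.10, adjusted p = 0.018) lower. Hsf1 had 0.19 ± 0.10 in wild type (adjusted p = 0.13).

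Across the 29 libraries, which share the TAC contrast, the transcripts whose log2 CPM was most like that of Hspb1 were Hspa1l (r = 0.96), Enah (r = 0.95), Pno1 (r = 0.94), Lman1l (r = 0.94) and Scarf2 (r = 0.93). Hspa1l encodes an HSP70 relative and lies next to Hspa1a on chromosome 17. Its mean was 25.2 ± 6.54 CPM in combined-ablated TAC hearts against 7.09 ± 1.27 CPM unstressed (1.83 ± 0.17, adjusted p = 3.3e-09). It rose in the other 3 genotypes by 1.59 ± 0.20, 1.42 ± 0.20 and 1.07 ± 0.17 (PKCε-null, PKCδ-ablated and wild type). Other annotated genes overlap 71.9% of the exon bases of Hspa1l, so its reads cannot be fully told apart from theirs. Hspa1b was most like Hspa1a (r = 0.97), Ubb (r = 0.83), D4Wsu53e, Fn1 and Ecm1 (r = 0.81 each). Hsp90aa1 was most like Hspa1l (r = 0.84), Pde8a (r = 0.84), Ndfip1 (r = 0.83), Arf4 and Hspa1a (r = 0.82 each). These r describe the libraries and carry no test.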

How the data were processed

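Each of the 29 libraries was deposited as unnormalized counts per gene. Per the submitters' processing notes, the authors used Bowtie2, TopHat2 2.0.10 and HTSeq on mm10, as well as DESeq and edgeR; no source used here gives their roles or parameters, or the gene annotation. Libraries were single-end and not strand-specific from ventricular apexes, per the labels' protocols, while the tissue label reads whole heart. HTSeq's 5 totals outside genes, among them ambiguous reads (0.776% to 0.942%), were left out of library sizes. Groups came from the titles; libraries are not tied to animals beyond their titles, so p-values measure the spread between libraries. Replicates of a group differed by a chi-square per degree of freedom of 1.58 to 38.8, and none was treated as a repeat. The closest pairs were unstressed combined-ablated 2 and 4 (1.58) and unstressed wild-type 1 and 4 (2.29). PKCδ-ablated TAC 1 and 2 (2.54) and unstressed PKCε-null 1 and 2 (2.63) followed. Whether the libraries of such a pair share an animal is not given in the sources used here. If they do, the p-values of their groups are too small.

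The test was edgeR 4.0.16 (limma 3.58.1, R 4.3.3): TMM, filterByExpr by group, robust quasi-likelihood fit of group means to all 29 libraries, Benjamini-Hochberg adjustment in each of 13 comparisons. The sex label was not a term, since 19 of 23 libraries labelled male carried Xist and 4 of 6 labelled female Y-linked transcripts; it was tried as an alternative. Both kinds of transcript were in 12 libraries, 10 of them among the 15 TAC libraries, and whether a library holds RNA of more than 1 animal is not given in the sources used here. Others were RLE, no filter, DESeq2 1.42.0, a replicate block, fits of the compared groups alone, each library left out, wild-type TAC 2 and combined-ablated TAC 2 left out, and, added after seeing the data, the 3 libraries highest in Hspa1a and Hspa1b left out. The script was tested on simulated data. The members and gene lists were chosen with earlier results of these data known. Named beside the members were Prkce, Prkcd, up to 4 called genes per comparison from the chaperone lists by smallest adjusted p, and the 5 genes of highest r for 4 members, of which those of Cryab are not reported here; Hspb8, Hsf1, Hsf4, Hsbp1 and further values of listed genes were chosen after their values were seen. Promoter sequences and positions are RefSeq's for GRCm38.p6, and shared windows and exon overlaps come from GENCODE vM21 transcripts. Figures used matplotlib 3.10.9 in Python 3.11.15.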

Additional observations from a re-analysis of the deposited data

Results flagged for a closer look

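Of 50 combinations of a member and a group of 4 libraries, 9 held a library far from the other 3. Chance flags about 1 in 20 only where levels are normally spread, which was not tested, so the 9 are not weighed against that rate. All 9 are high values of Hspa1a, Hspa1b and Dnajb1 in 3 libraries, so they are not 9 separate events. In wild-type TAC replicate 3 these genes had 47.8, 52.0 and 39.0 CPM, in PKCε-null TAC replicate 2 they had 150.1, 164 and 100.2 CPM, and in combined-ablated TAC replicate 3 they had 87.1, 93.4 and 57.9 CPM, each named in the order Hspa1a, Hspa1b, Dnajb1. The shares of reads aligned to more than 1 place were 12.6%, 14.2% and 12.9% in these libraries, and the part of depth, handling or surgery in the high values was not tested.

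The TAC effect on Hspa8 differed between genotypes by the test of the difference itself: it was larger by 0.69 ± 0.14 on the log2 scale in combined-ablated than in wild-type hearts (adjusted p = 0.00061 by edgeR).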

How the results depend on the processing

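Over 8 settings other than leaving out a single library, 1003 of 1037 recomputed member values kept their direction and their side of the threshold, 8 lost and 26 gained a call, and none that was called in either fit changed sign; 87 of all 4807 recomputed values changed sign with neither value called. Hspb1 and Hspb7 stayed called after TAC in all 4 genotypes in every leave-one-out fit, as did the Hspa8 interaction (0.57 to 0.77). With the sex label as a term, 122 genes were called between combined-ablated and wild-type TAC hearts (930 without it), and 2 members (1) had an interaction with the combined ablation. Fits of only the groups compared called 2 genes for that TAC comparison, 2 for PKCε-null against wild-type TAC hearts (6 in the shared fit) and 515 for the PKCδ interaction (175). They called 9 members for TAC in PKCδ-ablated hearts (3), with the share over all genes not given here. DESeq2 called 60 genes for PKCε-null against wild-type TAC hearts, 1 for PKCδ-ablated against wild-type TAC hearts (0), 307 and 52 for the PKCδ and PKCε interactions (175 and 5), and 1 member for combined-ablated against wild-type TAC hearts (0). Without wild-type TAC 2 and combined-ablated TAC 2, PKCε-null against wild-type TAC hearts gave 24 genes, the PKCε interaction 8 and combined-ablated against wild-type TAC hearts 1 member. Without the 3 libraries highest in Hspa1a and Hspa1b, PKCε-null against wild-type TAC hearts gave 2 genes, and Dnajb1 was called higher in unstressed combined-ablated hearts (0.64 ± 0.18, adjusted p = 0.0092), as it was with only the groups compared (adjusted p = 0.016). The libraries left out were also high in Dnajb1, so its adjusted p of 0.0092 is no independent test. The causes were not tested. Median shifts of all genes between scalings stayed below 0.1.

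With each library left out, members called ranged over 3 to 7 for TAC in wild type (3 without wild-type unstressed replicate 2), 1 to 3 for combined-ablated against wild-type unstressed hearts, 0 to 1 for the same in TAC hearts and 1 to 2 for its interaction. Genes called ranged over 2461 to 3943 for TAC in PKCδ-ablated hearts, 210 to 909 and 112 to 527 for PKCδ-ablated and PKCε-null against wild-type unstressed hearts, 2 to 23 and 140 to 1407 for PKCε-null and combined-ablated against wild-type TAC hearts, and 56 to 256 and 3 to 26 for the PKCδ and PKCε interactions. The replicate numbers do not pair the libraries: 4 of 35 same-numbered pairs correlated above 0.1 (range -0.134 to 0.181) and 8 of 29 libraries correlated best with their own number. With the replicate block the PKCε interaction gave 10 genes (5 without it), and no member's call changed. Depth limits the unstressed Hspa1a and Hspa1b, where 9 and 5 of 14 libraries exceeded 0.701 CPM.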
